A study of Mus musculus with 2 samples.

Results

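The 10 genes described here are Abcb11, Abcb4, Abcb1a, Abcc2, Abcc3, Abcc6, Abcg2, Abcg5, Abcg8 and Atp8b1. All but Atp8b1 encode pumps that move bile components, drugs and conjugates out of hepatocytes. For short, all 10 are called pump genes. They were chosen by name, as a family. Each is represented by the probe sets of an Affymetrix array whose platform annotation names that gene alone, which gave 11 probe sets, 1 for each of 9 genes and 2 for Abcb1a. All 10 are among the 13117 genes that passed the filter on dim signals. Liver RNA came from male wild-type C57BL/6 mice aged 8 weeks. In the renal ischaemia-reperfusion group, called AKI in the labels, both kidneys were made ischaemic for 30 minutes under warm conditions and reperfused, and the control group had sham surgery. Livers were collected after 24 hours, and tissue of 3 mice of each group was combined into 1 pool and hybridised to 1 array. There were therefore 2 arrays and no replicates, the spread between mice is unknown, and no test or p-value could be given. Every difference below describes these 2 pools.

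Bile is made at the canaliculus, a narrow space between the apical membranes of neighbouring hepatocytes. ATP-binding cassette (ABC) transporters use ATP to push their cargo into it against steep gradients, and the flow of bile follows the bile salts and other solutes they export. Other ABC proteins sit in the basolateral membrane and return conjugates to the blood. Atp8b1 is not an ABC protein but a P4-type ATPase, a flippase that moves phospholipid to the inner leaflet of the canalicular membrane and so protects it against bile salts. Inherited loss of ABCB11, ABCB4 or ATP8B1 causes cholestasis in people.

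Upstream sequences of 4 members are shown first, those of Abcb11 and Abcc2 for motifs of factors whose transcripts are described further on, and that of Abcg5 and Abcg8 because the genes share it. They were read from RefSeq windows of build GRCm38.p6 that cover the 250 bases before each transcript start, 5′ to 3′ on the gene's strand. Windows of 7 of the 10 members were used, 10 windows in all, since Abcg2 has 3 annotated starts and Abcg8 has 2. The farnesoid X receptor, encoded by Nr1h4, binds as a pair with the retinoid X receptor to an inverted repeat of AGGTCA with 1 base between the copies. The Abcb11 window (chr2:69342617-69342866, minus strand) holds 2 matches to that repeat, printed in capitals:

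Abcb11: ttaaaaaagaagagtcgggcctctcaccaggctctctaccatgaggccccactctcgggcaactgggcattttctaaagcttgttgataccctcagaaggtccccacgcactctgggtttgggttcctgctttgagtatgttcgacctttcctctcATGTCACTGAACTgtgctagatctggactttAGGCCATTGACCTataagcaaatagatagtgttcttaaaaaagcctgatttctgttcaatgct

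Both matches were found by a search for AGGTCANTGACCT with up to 2 mismatches. The nearer one, AGGCCATTGACCT, lies at bases -63 to -51 from the start and has 1 mismatch, and the farther one, ATGTCACTGAACT, lies at -94 to -82 and has 2. Of 32817 windows of the same length in the RefSeq table, 0.957% hold a match as good as 2 mismatches, and of the members' 10 windows 1 does. A match is a property of the letters and was not measured as binding here.

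Abcc2, the pump for bilirubin glucuronide and glutathione conjugates, is shown because its window (chr19:43782058-43782307, plus strand) holds both TGACNNNGC, the core of the element bound by NRF2, and a single AGGTCA. These are in capitals, the NRF2 core at bases -98 to -90 and the AGGTCA at -49 to -44:

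Abcc2: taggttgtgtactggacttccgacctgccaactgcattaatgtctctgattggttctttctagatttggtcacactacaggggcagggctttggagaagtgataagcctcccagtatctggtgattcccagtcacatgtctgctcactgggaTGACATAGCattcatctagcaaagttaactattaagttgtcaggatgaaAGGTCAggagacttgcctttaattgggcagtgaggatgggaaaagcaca

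The NRF2 core occurs in 10.2% of all windows and a single AGGTCA, on either strand, in 14.0%. A single AGGTCA was present in 4 of the 10 member windows, that of Abcb11 being part of its nearer inverted repeat.

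Abcg5 and Abcg8, which together form the sterol pump, lie head to head with 109 bases between the start of Abcg5 and the second annotated start of Abcg8. That stretch is upstream of both (chr17:84683012-84683120), printed on the strand of Abcg8 with AGATAA or TATAAA, read on the opposite strand, in capitals:

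Abcg5 to Abcg8: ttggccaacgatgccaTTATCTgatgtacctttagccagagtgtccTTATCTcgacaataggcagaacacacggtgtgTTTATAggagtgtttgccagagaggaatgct

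The 2 TTATCT runs at bases 17 to 22 and 47 to 52 are AGATAA, the site of GATA factors, on the strand of Abcg5, and TTTATA at bases 79 to 84 is TATAAA on that strand. AGATAA was found in 9.99% of all windows and TATAAA in 12.4%. Both strands were searched for every motif. The direct repeats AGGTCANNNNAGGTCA, the liver X receptor type, and AGGTCANAGGTCA, the HNF4 type, were searched with up to 2 mismatches and are present in 2.57% and 3.23% of all windows. The HNF1 core GTTAAT is in 6.44% of windows and the E box CACGTG in 6.02%. None of these 4 was found in the members' windows, which says only that those letters are not in these stretches. The GC box GGGCGG, found in 32.7% of all windows, was in 3 member windows.

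**Figure D1:**
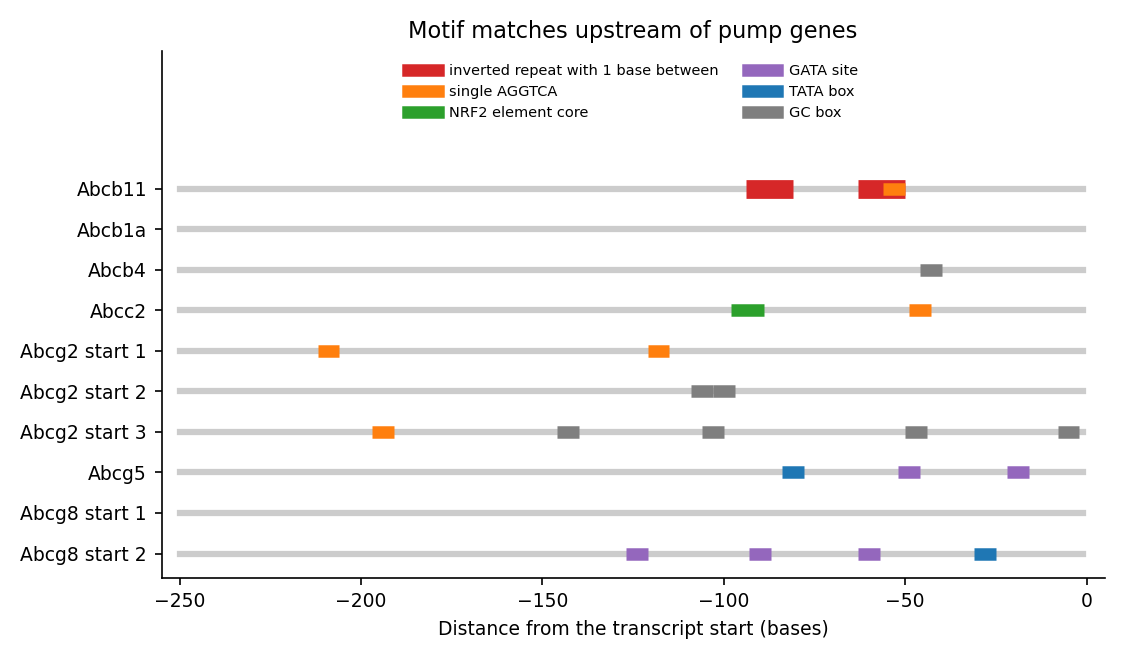
Motif matches in the 250 bases before each annotated transcript start of 7 pump genes; the x axis is the distance from the start in bases, each grey line is a window and each coloured block a match on either strand. The 2 inverted repeats stand in the Abcb11 window alone, and all 3 matches of Abcg5 are the same letters as 3 of the 4 at the second start of Abcg8.

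Of the 10 pump genes, 8 had a lower signal in the renal ischaemia-reperfusion pool, beside 50.7% of all genes, and 2 a higher one. Those at least 2-fold lower were Abcb11, Abcc6, Abcb4, Abcc2 and Abcg5, 5 of the 10, and none was at least 2-fold higher. Over all 13117 genes, 9.59% passed 2-fold downwards and 8.71% upwards. The median log2 difference was -1.02 over the 10 pump genes and -0.01 over all genes. Each log2 difference subtracts the sham value from that after renal ischaemia, on the scale of log2(signal + 16), where the added 16 shrinks differences between dim signals. Among the 9 pump genes with a signal at or above the array median in both pools, 5 were at least 2-fold lower, beside 6.17% of all such genes. Fewer hepatocytes in a pool and less transcript per hepatocyte cannot be told apart in tissue RNA.

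**Figure D2:**
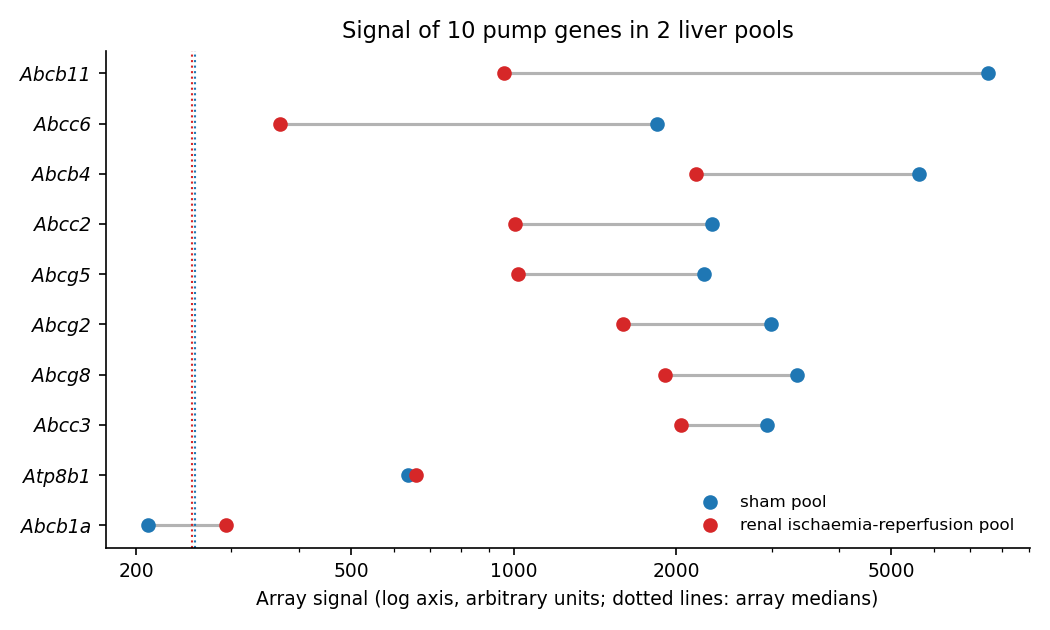
Array signal of each pump gene in the sham pool (blue) and the renal ischaemia-reperfusion pool (red), on a log axis in arbitrary units, 1 point per pool; dotted lines are the array medians. The red point lies left of the blue one for 8 of 10 genes, farthest for Abcb11 (7538 to 960.3), while those of Atp8b1 nearly coincide. Points are to be compared within a gene only, since probe sets differ in brightness.

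Bile salt and phospholipid export was represented by Abcb11, Abcb4 and Atp8b1. Abcb11, the bile salt export pump, read 7538 after sham surgery and 960.3 after renal ischaemia, 12.7% of the sham signal. Its log2 difference of -2.95 (7.74-fold lower) was the lowest of the 10, and 72 of the 13117 genes had a lower one. Abcb4, which moves phosphatidylcholine into bile so that bile salts are held in mixed micelles, had signals of 5633 and 2171, a 2.58-fold difference (-1.37). Both were lower after renal ischaemia, and the difference of Abcb11 minus that of Abcb4 was -1.58. Atp8b1 had signals of 637.3 and 659.9, a log2 difference of 0.05 (1.03-fold higher). As a yardstick, the log2 differences of probe sets for 1 gene had a pooled SD of 0.47 over 3733 genes at or above the median in both pools, which is 0.67 for the gap between 2 probe sets. It covers probe sets on the same 2 arrays and not the spread between mice.

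Of the pumps for organic anions and drugs, Abcc2 and Abcg2 were lower and Abcb1a was not. Abcc2 read 2328 after sham surgery and 1006 after renal ischaemia, 2.29-fold lower (-1.20). Its probe set is of a type that can cross-hybridise. Abcg2, the breast cancer resistance protein, which exports sulphated conjugates and urate, had signals of 2991 and 1595. Its log2 difference of -0.90 (1.87-fold) did not reach 2-fold. Abcb1a is a P-glycoprotein that exports hydrophobic drugs. The brighter of its 2 probe sets read 210.1 after sham surgery, under the array median of 257.0, and 293.1 after renal ischaemia. That allows only the bound of at least 1.13-fold higher, and the measured log2 difference was 0.45. The second probe set read 115.1 and 194.6, each under its array's median, and has no fold.

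Abcb1a, Abcb1b and Abcb4 stand in a row on 1 chromosome, with Abcb1b in the middle. Abcb1b, the second mouse P-glycoprotein gene, had signals of 691.5 and 435.9 (-0.65). Abcb4 and its neighbour Abcb1b were thus both lower, at -1.37 and -0.65, while for Abcb1a only the bound above can be set beside them. RefSeq also lists Abcb4 among the older names of Abcb1a, so their probe sets were told apart by Entrez identifier.

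The sterol pump is a heterodimer of Abcg5 and Abcg8 that exports cholesterol and plant sterols into bile. Abcg5 had signals of 2255 and 1018, 2.20-fold lower (-1.14), and Abcg8 had signals of 3337 and 1904, 1.75-fold lower (-0.80). The partners that share the 109-base stretch printed above therefore differed in the same direction. Abcg5 minus Abcg8 was -0.33, within the SD of 0.67 for the gap between 2 probe sets. Their outer neighbours on the chromosome had log2 differences of -0.07 for Dync2li1, beside Abcg5, and -0.24 for Lrpprc, beside Abcg8. Whether the shared stretch had a part in these values was not tested.

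Both basolateral pump genes were lower, by unlike amounts. Abcc3, which returns glucuronides and bile acids to sinusoidal blood, read 2946 after sham surgery and 2043 after renal ischaemia, a log2 difference of -0.52 (1.44-fold lower). Abcc6, whose loss causes ectopic calcification and which promotes the release of ATP from hepatocytes, had signals of 1842 and 369.8. Its log2 difference of -2.27 (4.81-fold) was the second lowest of the 10, and 215 of all genes had a lower one. Abcc6 minus Abcc3 was -1.74. At least 4-fold lower were thus 2 pump genes, Abcb11 and Abcc6, beside 2.46% of all genes.

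**Figure D3:**
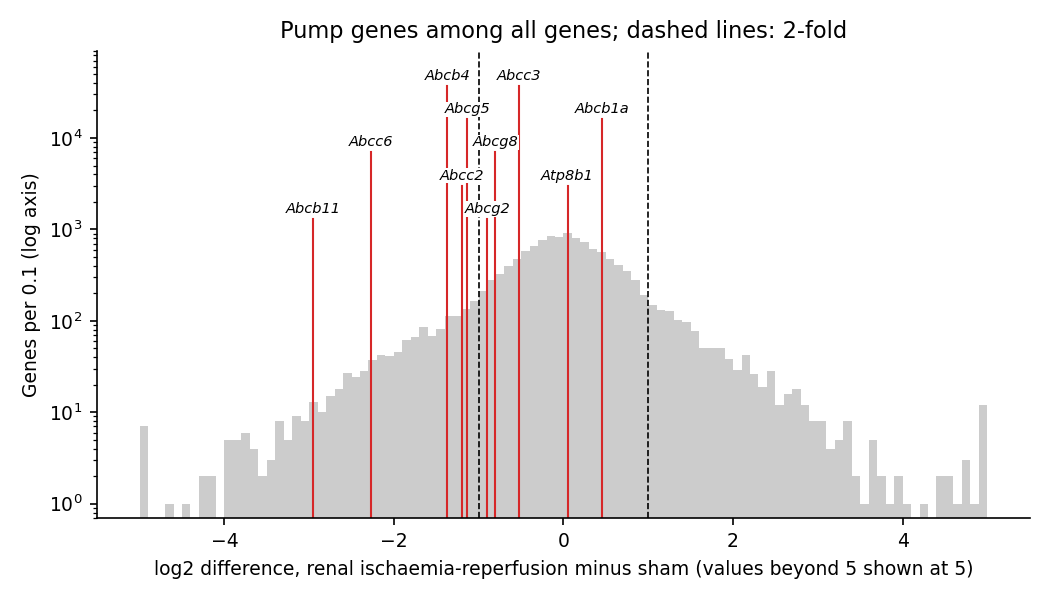
Distribution of log2 differences over 13117 genes (grey, genes per bin of 0.1 on a log axis, extreme values gathered in the end bins), with each pump gene as a red line at its own difference; the height of a red line has no meaning. Abcb11 and Abcc6 lie in the lower tail, and 3 further pump genes lie left of the dashed 2-fold line at -1.

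Since 9 of the 10 rest on a single probe set, the behaviour of other genes with several probe sets shows how far such values hold. Of 397 genes at least 2-fold lower by their brightest probe set, the second brightest was also at least 2-fold lower for 52.1% and lower by any amount for 84.9%. Between 2-fold and 4-fold lower, where Abcb4, Abcc2 and Abcg5 lie, the share with a second probe set at least 2-fold lower was 46.0% of 315 genes. At least 4-fold lower, where Abcb11 and Abcc6 lie, it was 75.6% of 82 genes.

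A list of factors linked to the control of the pump genes, directly or less directly, held 16 measured genes, with Fgfr4, Klb and Keap1 among them. By their brightest probe sets, 4 of them were at least 2-fold lower, beside 9.59% of all genes, and none passed 2-fold upwards, beside 8.71%. The median log2 difference was -0.61. Nr1h4, the bile acid sensor that activates Abcb11, had signals of 1816 and 592.4 (-1.59). Nr1i3, the constitutive androstane receptor, which controls Abcc2 and other drug transporters, had signals of 2263 and 732.9 (-1.61). Ahr, the aryl hydrocarbon receptor, was at -1.04, but its other probe set was at -0.03. Nfe2l2, which encodes NRF2, was at -1.01 by its brightest probe set and at 5.45 by the other, so its direction is uncertain.

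Other regulators differed less. Nr1h3, the liver X receptor that drives Abcg5 and Abcg8, had signals of 1151 and 715.7 (-0.67), and Nr1i2, the pregnane X receptor, was at -0.64. Nr0b2, a repressor induced by the farnesoid X receptor, was at -0.58. Rxra, the shared partner receptor (3188 and 3250, 0.03), and Hnf4a, a master factor of hepatocytes (10775 and 10317, -0.06), were nearly level by their brightest probe sets. Other probe sets of Rxra reached 1.05, and those of Hnf4a ran from -0.26 to 0.27. Nr5a2 (0.10) and Ppargc1a (0.31) were the highest of the list, each with probe sets of either sign.

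Genes for proteins that anchor and deliver canalicular pumps were mixed. Of 17 measured, by their brightest probe sets, 4 were at least 2-fold lower, beside 9.59% of all genes. None passed 2-fold upwards, beside 8.71% of all genes, and the median was -0.04. Pdzk1, a scaffold that binds the tails of membrane transporters, had signals of 1470 and 167.6, the latter under the array median, and was at least 5.50-fold lower. Dpp4 (1600 and 355.8, -2.12) and Ceacam1 (5188 and 2181, -1.24), both proteins of the canalicular membrane, were lower by every probe set past the filter. The fourth was Rdx, which encodes radixin, the protein that ties Abcc2 to the actin cortex of the canaliculus (4375 and 1981, -1.14). Its 3 probe sets ran from -1.80 to -0.46. At the other end were Mal2 (0.88), Msn (0.83), which encodes moesin, and Rab11a (0.57), a GTPase of recycling endosomes whose other probe set was at -0.86.

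Among other ways out of the hepatocyte, 4 of 7 listed genes were measured, with a median of -0.48. Slc47a1, the canalicular exporter of organic cations, had signals of 3212 and 927.6, 3.42-fold lower (-1.77). Atp7b, which loads copper into bile, was at -0.32, and Abcc1 was at 0.38, with its other probe set at -0.16. The basolateral bile acid exporters Abcc4 (36.4 and 102.3), Slc51a (199.0 and 182.7) and Slc51b (43.8 and 54.1) lay under the median of each array and have no fold. On the import and synthesis side of bile acids, 9 of 12 measured genes were at least 2-fold lower, beside 9.59% of all genes. Their median was -1.48, and the exceptions were Cyp27a1 (-0.87), Slc27a5 (-0.25) and Baat (0.26).

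Of 22 other ABC genes measured, 1 passed 2-fold downwards and 3 upwards, beside 9.59% and 8.71% of all genes. The median of the 22 was 0.14, beside -1.02 for the pump genes. Abcd2, Abcc12 and Abcc8 were among these 4 but dim on 1 array each, with bounds of at least 1.07-fold lower, 1.18-fold higher and 1.13-fold higher. Abcb6 was at -0.96, and Abcc10, dim after renal ischaemia, was at least 1.19-fold lower. Abce1, a ribosome recycling factor with ABC domains and no membrane part, was at 1.01, by a probe set open to cross-hybridisation. Flippases and their subunits, the family of Atp8b1, had no member past 2-fold among 13 and a median of -0.16. They ran from Atp11b (-0.90) and Tmem30c (-0.75) up to Atp8a1 (0.36), Atp10d (0.53) and Atp8a2 (at least 1.22-fold higher, its sham signal being dim). Tmem30a, the subunit that carries Atp8b1 to the membrane, had signals of 5905 and 3968 (-0.57), and its other probe sets were lower, down to -2.51.

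**Figure D4:**
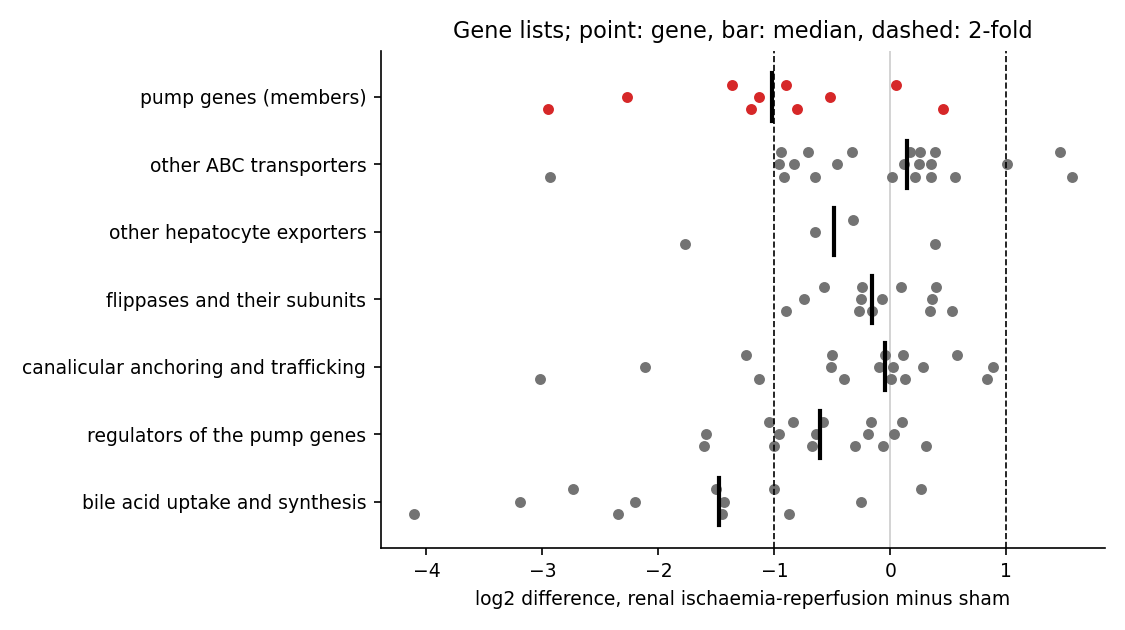
Log2 differences (x axis) of the pump genes in red and of 6 other gene lists in grey, 1 point per measured gene, with a black bar at each list's median and dashed lines at 2-fold. The pump genes have a median of -1.02, between bile acid uptake and synthesis (-1.48) and the regulators (-0.61), while other ABC transporters centre on 0.14.

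Both pools carried strong hepatocyte markers. The summed signal of the 7 measured was 224442 after sham surgery and 318937 after renal ischaemia, with a median log2 difference of 0.41. The signal was higher for 4 of these markers and lower for 3. They ran from Cps1 (-1.12) to Fgb (1.27), a fibrinogen chain. All 7 pancreatic acinar markers with a probe set had a higher signal after renal ischaemia (summed 2045 and 8812). Of them, 4 were under the median in the sham pool. With those at their bounds, 5 of the 7 were at least 2-fold higher, among them Cela2a (519.9 and 2244) and Cela3b (918.7 and 2945), which were bright in both pools. Of 5 cholangiocyte markers with a probe set (summed 761.7 and 2469), Krt19, Epcam and Sox9 were higher, while Krt7 (81.3 and 32.0) and Cftr (108.6 and 15.2) were lower and dim in both pools. Sox9 alone was at or above the median in both (318.8 and 731.2). Kupffer cell markers were lower for 5 of 6 (summed 6938 and 4008). Stellate cell markers were lower for 5 of 6 (summed 5201 and 3454), 2 of these dim after renal ischaemia, and Pdgfrb was dim in both. The summed endothelial signal (5537 and 6469) was higher through Lyve1 (326.8 and 2741), while 3 of 5 markers were lower, Clec4g at -1.05 and Stab2 at -0.83 among them. The summed neutrophil signal (3480 and 5451) was higher mainly through S100a8 (45.6 and 1407) and S100a9 (204.8 and 788.1), with Mpo at 0.07 and Elane at -0.44. Lymphocyte (1657 and 1743), erythroid (3186 and 2501) and kidney tubule markers (2354 and 2394) were the other lists. No marker was listed at 0, and the part of these cells in the pump values was not tested.

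The scale itself was a choice. The 18 probe sets for bacterial hybridisation controls had a median log2 difference of 0.28. With them as the reference the median of all genes became -0.30, Abcg2 (-1.18) and Abcg8 (-1.09) also passed 2-fold, and Atp8b1 turned from 0.05 to -0.24. Relative to the shifted median of all genes, the members' differences were by construction the same as before. In that setting 2016 genes (15.4%) passed 2-fold downwards and 756 upwards, instead of 1258 and 1143, beside 7 of the 10 pump genes.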

How the data were processed

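Liver RNA of 2 pools, each of 3 mice, was measured on 1 Affymetrix array per pool. Trizol was used for extraction, and 6 ug of RNA went into biotinylated cRNA, per the labels' protocols. The deposited values are a linear intensity per probe set. Their mean, leaving out the outer 2% on either side, is 500.0 for each array, so both are on 1 scale. For the summarisation software, a version or name was not given in the sources used here.

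Probe sets with 1 gene in the platform annotation (34945 of 45037) were named, and symbols were updated through Entrez identifiers. A probe set entered when a signal reached its array's median (257.0 sham, 254.1 renal ischaemia-reperfusion). Each gene was represented by its probe set of highest mean log2(signal + 16). For a signal under the median, the bound sets the brighter signal against that median. The call was a 2-fold difference. The number of arrays limits the precision.

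All 10 members were named whatever their values, and of each gene list the 3 lowest and 3 highest (markers and bile acid genes mainly by counts). Rdx, Nr1h3, Nr1i2, Nr0b2, Nfe2l2, Hnf4a, Abcc4, Slc51a, Slc51b and the neighbours on chromosomes were added after their values were seen. Members, lists and settings were chosen with earlier results of these data known. The pseudocount, filter, reference, probe set choice and threshold were varied. The steps were tested on simulated data. Python 3.11.15, pandas 2.3.3 and statsmodels 0.14.6 were used, and upstream windows came from RefSeq (GRCm38.p6).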

Additional observations from a re-analysis of the deposited data

How the results depend on the processing

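Each alternative changed 1 choice. No paired analysis was possible because each group has 1 array, and for the same reason none could be left out in turn. In all 14 settings that give a difference, Abcb11, Abcc6, Abcb4 and Abcg5 stayed at least 2-fold lower, as did Abcc2 in the 13 that keep its probe set. Many of these settings could not change the values. Each of these genes has 1 probe set, bright in both pools, so the filter and probe set choices return the main difference. Only the reference, the normalization and the pseudocount could move it. The members' median ran from -1.30 (hybridisation controls as the reference) to -0.90 (cross-hybridising probe sets left out). In the latter setting 4 of 9 members were at least 2-fold lower, beside 9.77% of all genes. At 3-fold, 2 members were lower, beside 4.49% of all genes, and at 1.5-fold, 7 were, beside 19.3%. Over all genes, with hybridisation controls as the reference, 2016 were at least 2-fold lower and 756 higher, so the higher made up 27.3% instead of 47.6%. A filter at the 75th percentile gave 797 lower and 682 higher, and asking both signals to reach the median 676 and 563, since it leaves out genes dim in 1 pool. Raising dim signals to the median gave 733 higher. Thresholds of 1.5-fold and 3-fold gave 2536 and 589 lower and 2449 and 472 higher. The main counts were 1258 lower and 1143 higher. Abcb1a is limited by its signal, which lies near the array median.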

Other observations

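Among the ABC genes outside the pumps, several groups by cellular place can be described; they were picked after their values were seen. The ABCE and ABCF proteins, which act on ribosomes and transport nothing, had log2 differences of 1.01 (Abce1), 0.55 (Abcf2), 0.21 (Abcf1) and 0.11 (Abcf3). The mitochondrial transporters Abcb6 (-0.96) and Abcb10 (-0.83), linked to haem synthesis, were lower without reaching 2-fold by their brightest probe sets, another of Abcb10 being at -2.50, while Abcb8 was at 0.24. Abcd3, the peroxisomal transporter of branched-chain and dicarboxylic acyl-CoA, read 11880 after sham surgery and 9468 after renal ischaemia (-0.33). The antigen peptide transporter subunits Tap1 and Tap2 were at -0.46 and -0.91. Abcg1, which moves cholesterol within and out of macrophages, was at 0.35 by its 1 probe set past the filter. That value lies between the quartiles of all genes, -0.45 and 0.42.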
